A study of Saccharomyces cerevisiae S288C with 18 samples.

Results

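The comparison described here sets the 3 cultures of Saccharomyces cerevisiae S288C given amphotericin B and lactoferrin together (AMB-LF) directly against the 3 cultures given amphotericin B alone (AMB), without passing through their untreated controls. These are 6 of the 18 RNA-seq libraries in the series and 6 of its 12 HiSeq libraries, chosen by their treatment labels. Both groups received 0.03 µg/mL amphotericin B. The AMB-LF cultures also received 2 µg/mL bovine lactoferrin and were sampled at 50 min, and the AMB cultures received no lactoferrin and were sampled at 60 min. Each time was the one at which that treatment had reduced growth to the same set degree, so lactoferrin and the 10 min difference in exposure cannot be told apart in any value below. AMB-LF 1, AMB 1 and AMB 2 were sequenced on lane 1, and AMB-LF 2, AMB-LF 3 and AMB 3 on lane 2. The 6 untreated libraries, 3 for each duration, are given as background and helped to estimate the spread. Groups were named as biological triplicates by the study, and p-values measure the spread between these cultures.

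Amphotericin B is a polyene that binds ergosterol, the main sterol of the fungal membrane, and makes the membrane leaky. Lactoferrin is an iron-binding protein of milk. In yeast, a shortage or imbalance of amino acids raises translation of the activator Gcn4, which binds the sequence TGACTC and drives most amino acid biosynthesis genes, a response known as general amino acid control. The level of GCN4 messenger RNA need not change in that response, because its control is mainly translational. Other regulators named below act on metals (Zap1 for zinc, Aft1 for iron), on poor nitrogen sources (Gln3 and Gat1) and on general stress (Msn2 and Msn4).

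Depth was similar in the treated libraries, which held between 6799569 and 8674168 counted reads. Values are CPM, the counts of a gene per 1000000 counts of its library, scaled by edgeR's TMM factors, and differences are log2 of AMB-LF over AMB with a negative sign where the combination was lower. The 2 treated groups were about as far from each other as replicates were from one another. Over the 5456 genes with enough reads to test, the root mean square difference between an AMB-LF and an AMB library ran from 0.186 to 0.24 log2 units over 9 pairs. Pairs within AMB-LF ran from 0.188 to 0.203 and pairs within AMB from 0.171 to 0.212. The same measure was 0.386 to 0.532 between AMB and its control, 0.4 to 0.567 between AMB-LF and its control, and 0.315 to 0.613 between the 2 untreated groups.

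**Figure D1:**
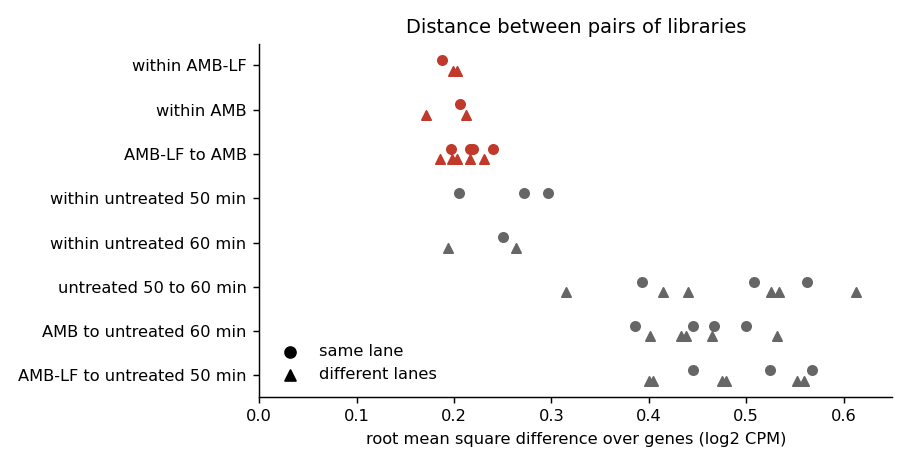
Root mean square difference in log2 CPM over 5456 genes for each pair of libraries, by kind of pair; circles are pairs on the same lane and triangles pairs on different lanes. The 9 pairs of AMB-LF with AMB (0.186 to 0.24) overlap the pairs within each treated group, whereas every pair of a treated with its untreated library lies at 0.386 or above.

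Few genes separated the combination from amphotericin B alone. With edgeR's quasi-likelihood test and Benjamini-Hochberg adjustment over all genes tested, 17 genes were lower with AMB-LF, which is 0.312% of those tested, and 1 was higher, which is 0.0183%. At an unadjusted p under 0.05 there were 275 genes lower and 111 higher. The median absolute log2 difference was 0.069, and the 95% interval of the difference lay within 1.5-fold for 5057 genes (92.7%) and within 2-fold for 5407 (99.1%). The untreated groups, which carry the same 2 durations in their sample labels, were compared in the same way, although the submitters' growth notes name the durations of these controls in the other order. There 828 genes were higher in the 50 min control (15.2%) and 906 were lower (16.6%), with a median absolute log2 difference of 0.182. All 3 libraries of the 50 min control were on lane 1, and with lane 1 libraries alone these counts were 112 higher and 422 lower.

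Nearly all calls needed all 6 treated libraries. All 18 genes kept their direction under every alternative run, also when any single library was left out. The treated groups did not overlap in any of the 18, so a direction could hardly change. Without any one of AMB-LF 1, AMB-LF 2, AMB-LF 3, AMB 2 or AMB 3 no gene passed the test, and without AMB 1 only 2 did, ADH5 and ARO5. Leaving out an untreated library, which enters only the scaling and the estimates of spread and lane, gave 5 to 26 lower genes, with 7 without control for AMB 1, 5 without control for AMB 2 and 26 without control for AMB-LF 3. The fits lacking 1 treated library held 202 to 448 genes at an unadjusted p under 0.05. Other tests on the same 12 libraries called more genes. The likelihood ratio test of edgeR gave 49 lower and 6 higher, and DESeq2 gave 57 lower and 6 higher, with all 18 among the calls of each.

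**Figure D2:**
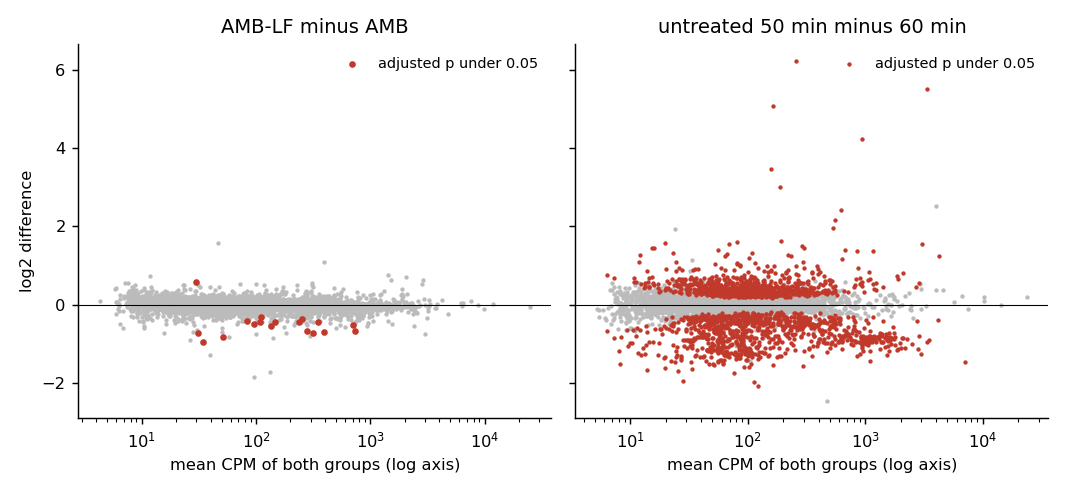
Log2 difference of every tested gene against its mean CPM (log axis), for AMB-LF minus AMB on the left and for the 50 min minus the 60 min untreated control on the right; red points passed the test. On the left 17 red points lie below 0 and 1 above, against 906 and 828 on the right.

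Of the 17 lower genes, 5 belonged to the lists of amino acid biosynthesis (LEU4, CPA1, ARG56, HIS7 and HIS3), while 10 of all 18 called genes were in no list. The smallest adjusted p belonged to ADH5 and ARO5. ADH5, an alcohol dehydrogenase at chrII:533762-534817 (R64), was 241, 228 and 247 CPM in the AMB-LF libraries and 382, 414 and 382 in the AMB libraries. Its log2 difference was -0.71 (SE 0.089, adjusted p = 0.0154), and the untreated libraries lay between 69.8 and 119 CPM. LEU4, the enzyme that commits carbon to leucine synthesis, read 577, 580 and 579 CPM with AMB-LF and 889, 852 and 784 with AMB, a log2 difference of -0.53 (SE 0.072, adjusted p = 0.021). In both genes every AMB-LF library was below every AMB library and above every untreated one. TMT1, a methyltransferase that acts on an intermediate of leucine synthesis, was at 276, 299 and 334 CPM with AMB-LF and 437, 541 and 459 with AMB, a log2 difference of -0.69 (SE 0.115).

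Arginine and histidine synthesis each held 2 called members. CPA1 encodes the small subunit of the carbamoyl phosphate synthetase of arginine synthesis, and its libraries read 553, 594 and 554 CPM with AMB-LF and 979, 908 and 856 with AMB. The log2 difference was -0.67 (SE 0.1, adjusted p = 0.025), or 1.59-fold. YOR302W, the short upstream reading frame in the leader of the CPA1 messenger RNA whose peptide represses CPA1 translation when arginine is plentiful, fell by 0.81 on the log2 scale, from 64 to 70.4 CPM with AMB to 34.1 to 40 CPM with AMB-LF. Both lie on one transcript and are not independent. ARG56 (ARG5,6), which makes acetylglutamate kinase and reductase, was at 208 to 234 CPM against 278 to 293.

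HIS7 and HIS3, which catalyse successive steps of histidine synthesis, were lower as well. HIS7 read 287, 309 and 295 CPM with AMB-LF and 415, 388 and 399 with AMB, a log2 difference of -0.45 (SE 0.072). HIS3 was at 193, 205 and 207 CPM against 277, 278 and 259, a difference of -0.43 (SE 0.073). Groups did not overlap in either gene, and the adjusted p was 0.0267 for HIS7 and 0.0294 for HIS3.

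Among the 18 called genes, the largest difference belonged to STR3, the peroxisomal cystathionine beta-lyase that takes sulfur from cysteine towards methionine. It was at 20.6, 25.7 and 23.3 CPM with AMB-LF and 43.7, 51.9 and 42 with AMB, a log2 difference of -0.96 (SE 0.162, adjusted p = 0.0294), or 1.95-fold. With AMB-LF it sat close to the untreated range of 12.5 to 22.1 CPM. SSU1, the plasma membrane sulfite pump, was at 76.8 to 82.5 CPM against 102 to 123.

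A second group of calls carried other functions. PKP2, a mitochondrial kinase of pyruvate dehydrogenase, read 102, 113 and 113 CPM with AMB-LF and 159, 166 and 150 with AMB. MCH4, which resembles monocarboxylate transporters, was at 119 to 129 CPM against 159 to 181. ARO5 (YGL117W) was at 215, 227 and 209 CPM against 338, 361 and 343, a log2 difference of -0.68 (SE 0.086). In all 3 genes the AMB-LF libraries were the lower ones and exceeded the untreated libraries. YLR152C was at 85.8 to 94.4 CPM with AMB-LF and 114 to 137 with AMB.

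TSA2 and ECM4, genes of redox defence, stood apart from this pattern. TSA2, a cytosolic thioredoxin peroxidase, read 23.7, 22.7 and 22.2 CPM with AMB-LF and 36.6, 41.8 and 39.9 with AMB, a log2 difference of -0.73 (SE 0.131, adjusted p = 0.0432). Its untreated libraries were at 40.5 to 57 CPM, so AMB-LF was the group below the rest. ECM4, a glutathione transferase, was at 66.5 to 72.8 CPM with AMB-LF, 92.4 to 99.2 with AMB and 70.6 to 118 without treatment. Of the 17 genes lower with AMB-LF, 14 had all 3 AMB-LF libraries above all 6 untreated libraries, and TSA2, ECM4 and STR3 did not. The share of all tested genes with this position was not counted, so it is not shown to be particular to these genes.

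The only gene called higher was ADR1, the zinc finger activator of genes for growth on ethanol, glycerol and fatty acids. It read 40.5, 34.3 and 31.6 CPM with AMB-LF and 24.6, 25.7 and 23.4 with AMB, a log2 difference of 0.58 (SE 0.09, adjusted p = 0.0267). The untreated cultures were at 37.2 to 43.2 CPM at 50 min and 29.7 to 30.3 at 60 min, a log2 difference of 0.33 that also passed its test. Of the 18 called genes, 8 were called between the untreated groups too, 7 of them in the same direction. Of all tested genes, 15.2% were called higher and 16.6% lower between those groups.

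**Figure D3:**
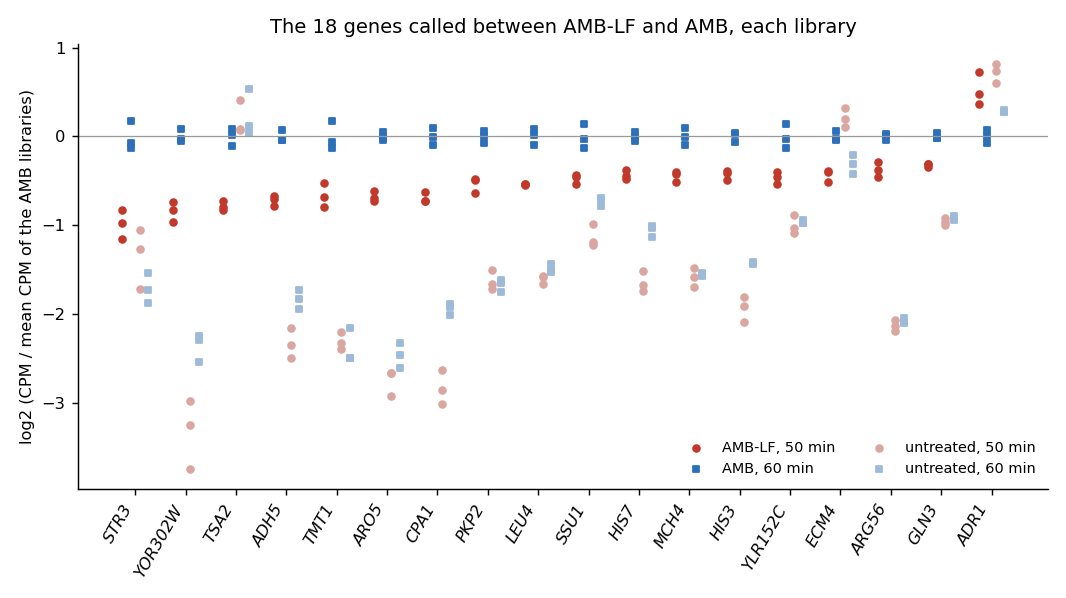
The 18 called genes in each of the 12 libraries, as log2 of CPM over the mean of the AMB libraries; red circles are AMB-LF, blue squares AMB and pale symbols the untreated controls. The 2 treated groups do not overlap in any of the 18 genes, and for 14 of the 17 lower genes AMB-LF lies between AMB and both untreated groups.

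Sites with the Gcn4 core were frequent upstream of these genes. In the 300 bases before the annotated start of each gene in the R64 sequence, TGACTC occurred on either strand in 13 of the 17 genes lower with AMB-LF (76.5%), counting CPA1 and YOR302W, which share 1 site. It occurred in 436 of 5407 windows of all tested genes (8.06%). The 436 genes with the site were not summarised as a class, and not every list rich in it was lower. Among 23 purine synthesis and one-carbon genes, 14 windows held it (60.9%). That list had a median log2 difference of -0.005 and 0 called. Its AMB-LF libraries were all below the AMB libraries in 8.7% of genes, against 9.62% of all genes. ADR1 had no TGACTC in its window. The runs below are shown because they carry this shared feature in genes described above. Each is read 5′ to 3′ on the strand of its gene, with the 6 bases in capitals, and GAGTCA is the same site read on the other strand.
ADH5, chrII:533524-533553, plus strand: tcgcggaaggatGAGTCAaaaagcatgtga
ARO5, chrVII:288246-288275, plus strand: ttcatatataatGAGTCAtttgtttctgtc
LEU4, chrXIV:426838-426867, minus strand: cttacgtgtaagTGACTCagttctttcaaa
PKP2, chrVII:392059-392088, plus strand: acactatgttttGAGTCAtccaaactttca
CPA1 and YOR302W, chrXV:882592-882621, plus strand: cttttcttttctTGACTCgtcgtttctttt
TMT1, chrV:540516-540545, minus strand: tgttgatgttcaTGACTCacagtaatatcc
ARG56, chrV:295175-295204, plus strand: ttcttatccgaaTGACTCagtctacatcaa
HIS3, chrXV:721812-721841, plus strand: ccacctagcggaTGACTCtttttttttctt
GLN3, chrV:229642-229671, plus strand: agagagtggaaaGAGTCAtcttgcaagaca
The start of the 6 bases was 122 bases before the start of HIS3, 101 before LEU4 and 226 before ADH5. HIS3, HIS7 and ARG56 each had 2 such sites. STR3, SSU1, TSA2 and ECM4 had none in this window. A match is a description of letters and not of binding. CCCCT, the core of the stress response element bound by Msn2 and Msn4, was in 35.3% of the windows of the 17 genes and in 22.7% of all windows, and in 74.1% of those of the general stress list described below.

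The wider biosynthesis lists lay on the same side. Over 5 lists (arginine, lysine, histidine, branched-chain and aromatic amino acids), 56 genes were tested, 5 were called lower and 0 higher. The 56 include the activator GCN4, as a member of the histidine list. All 3 AMB-LF libraries were below all 3 AMB libraries in 35 of the 56 (62.5%), against 9.62% of all tested genes, and were above them in 0, against 6.2%. The median log2 difference over the 56 was -0.275, against 0.0023 over all genes, and 50 of the 56 values were negative. In 48 of the 56 the AMB-LF mean exceeded both untreated means, but the share of all tested genes that did so was not counted. Between the untreated groups, the 56 had a median of -0.417, in the same direction as the treated difference.

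Arginine genes differed most, with a median of -0.39 over 10 members and all 10 values negative. ARG4, argininosuccinate lyase, was at 1962, 1966 and 1988 CPM with AMB-LF and 2766, 2909 and 2756 with AMB. ARG1 overlapped between groups, at 773 to 1054 CPM and 942 to 1238 CPM. Lysine genes had a median of -0.261 over 9 members (-0.139 on lane 1 and -0.457 on lane 2) with 0 called, although 5 had an unadjusted p under 0.05 and DESeq2 called 0.

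The histidine list, which also holds the activator GCN4, had a median of -0.295 over 8 members. HIS2 (-0.04), HIS6 (-0.01) and GCN4 (-0.01) were close to 0. Branched-chain genes had a median of -0.222 over 13, and LEU1 (0.13) and BAT2 (0.08) were the positive ones. The aromatic list, in turn, had a median of -0.21 over 16 with 0 called by the quasi-likelihood test, 7 at an unadjusted p under 0.05 and 5 called by DESeq2. TRP3, an enzyme of tryptophan synthesis, was at 348, 352 and 361 CPM against 432, 422 and 442, a difference of -0.31 with an adjusted p of 0.1.

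The activator itself was level between the treated groups. GCN4 read 1513, 1489 and 1508 CPM with AMB-LF and 1586, 1477 and 1506 with AMB, a log2 difference of -0.01 with a 95% interval from -0.26 to 0.23. Counts of GCN4 messenger RNA say nothing of its translation. GLN3, the activator of genes for poor nitrogen sources, was the 1 regulator of 19 tested that was called. It was at 98.7, 99.4 and 97.1 CPM with AMB-LF and 121, 126 and 121 with AMB, a log2 difference of -0.32 (SE 0.052, adjusted p = 0.0267), with untreated libraries between 61.4 and 65.9. GLN3 passed in 9 of 24 alternatives and not when the 6 treated libraries were fitted alone (adjusted p = 0.0642).

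The genes of poor nitrogen use did not follow GLN3. Of 34 tested, GLN3 alone was called, 20 values were positive and the median was 0.067. GAP1, the general amino acid permease, read 4573, 2748 and 3278 CPM with AMB-LF and 1989, 2095 and 2774 with AMB, and MEP2, the ammonium permease, 3586, 1655 and 2359 against 1275, 1339 and 2019. AMB-LF 1 was the highest library in both genes, and the groups overlapped. DUR12 (DUR1,2), urea amidolyase, was at 2198, 1542 and 1624 CPM against 1195, 916 and 1124, a log2 difference of 0.75 with no overlap and an adjusted p of 0.27. GAT1, another activator of this group, had a log2 difference of 0.36 (adjusted p = 0.403). GAP1, MEP2 and DUR12 were above every untreated library in all 6 treated ones, and MEP2 was at 82.9 to 207 CPM without treatment.

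General stress genes had mostly negative differences (23 of 27), but none was called. Of 27 tested members, 0 passed the quasi-likelihood test over 12 libraries and 9 were lower at an unadjusted p under 0.05. In 15 of the 27 (55.6%) the AMB-LF libraries were all below the AMB libraries, against 9.62% of all genes. The median log2 difference was -0.25, ranging from -0.355 on lane 1 to -0.143 on lane 2. Between the untreated groups, 13 of the 27 were called higher in the 50 min control and 0 lower. The median there was 0.51, opposite in sign to the treated difference. When only the 6 treated libraries were fitted, the spread being then estimated without the untreated ones, 36 genes were lower (0.66% of those tested) and 3 higher (0.055%). Of the 18 genes called over 12 libraries 16 passed there too, and GLN3 and ARG56 (adjusted p = 0.0712) did not. The 4 stress markers FMP16, ALD3, RTN2 and DDR2 were among the 36 lower genes of the 6-library fit, and DESeq2 called the same 4.

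HSP12, HXT5, DDR2 and ALD3, called in the 6-library fit and named after their values were seen, belong to 3 different lists. DDR2 and ALD3 are general stress markers, HXT5 is in the hexose transport list and HSP12 in that of heat shock proteins and chaperones. The heat shock list did not lean to lower values, with a median of 0.008 over 39 tested and 0 called over 12 libraries. Its AMB-LF libraries were all above the AMB libraries in 10 genes (25.6%, against 6.2% of all genes) and all below in 5 (12.8%, against 9.62%). HSP12, a membrane-protecting stress protein, read 1990.2, 2348 and 2359.7 CPM with AMB-LF and 3341, 3875 and 3967 with AMB. HXT5, a hexose transporter of slow growth, was at 198, 238 and 205 CPM against 351, 405 and 365, and its log2 difference was -0.83 in the 6 libraries (adjusted p = 0.0156) and -0.80 in the 12 (adjusted p = 0.0737). DDR2 was at 416, 497 and 435 CPM against 602, 691 and 643. Untreated levels varied more for such genes, with HXT5 between 232 and 432 CPM. Between the untreated groups they differed in the other direction, being higher in the 50 min control. That log2 difference was 0.58 for HXT5, 0.79 for ALD3, 0.55 for HSP12 and 0.34 for DDR2, and all but DDR2 passed the test. ALD3 was at 138, 150 and 122 CPM against 217, 240 and 233, and 40.4% of its 50-base stretches recur elsewhere in the genome, so reads may be shared with a near-identical gene. MSN2 and MSN4 had differences of 0.05 and 0.18.

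CHO2, a methyltransferase of phosphatidylcholine synthesis, and TIP1, a cell wall mannoprotein, were the 2 further genes higher in the 6-library fit. CHO2 read 590, 504 and 555 CPM against 423, 420 and 393 (log2 difference 0.45, adjusted p = 0.0423). TIP1 read 135, 141 and 138 CPM against 98.3, 96.1 and 94.1 (log2 difference 0.51, adjusted p = 0.0156). Groups were apart in both. Over 12 libraries their adjusted p was 0.117 and 0.209.

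**Figure D4:**
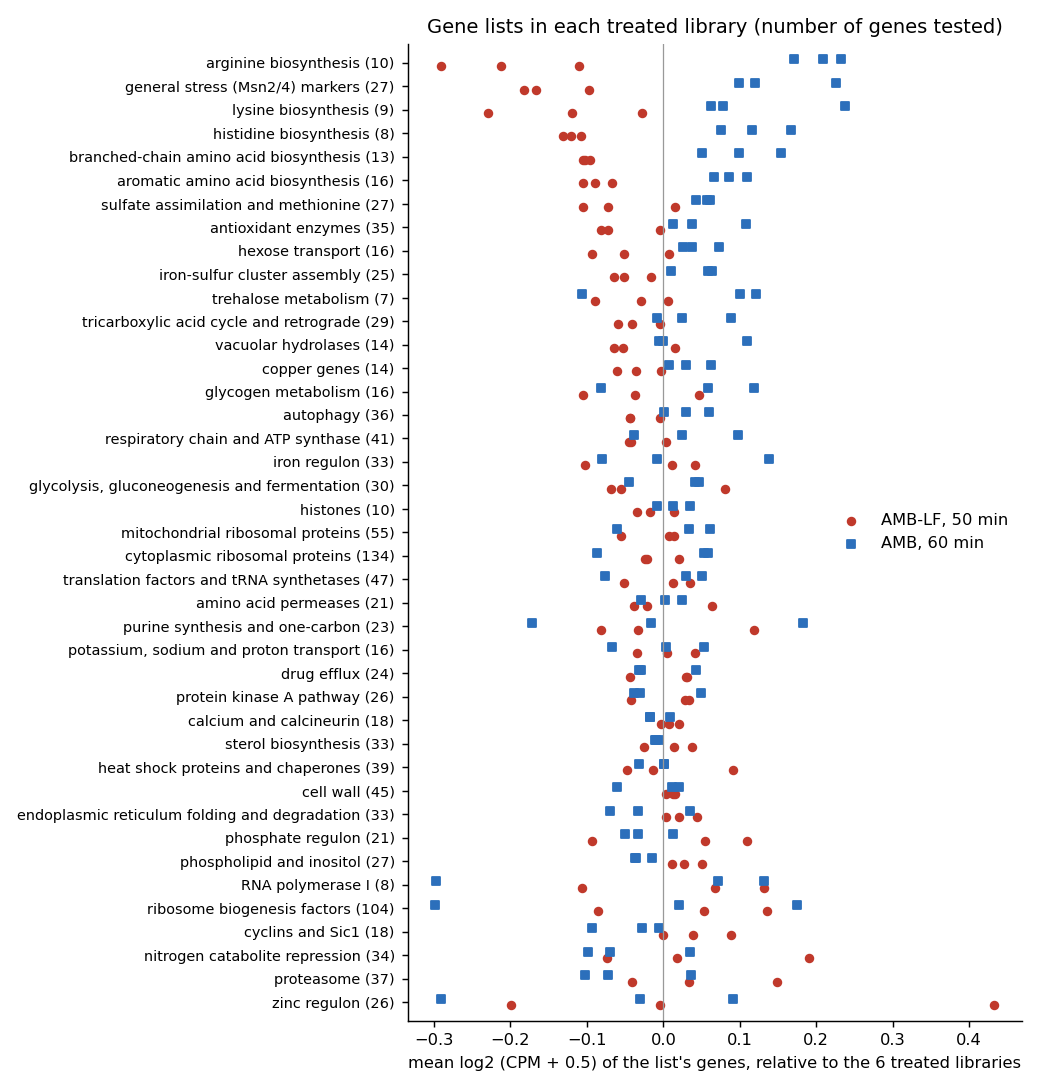
Mean log2 (CPM + 0.5) of each gene list in the 6 treated libraries, relative to their mean, with the number of genes tested in parentheses; red circles are AMB-LF and blue squares AMB. In 12 of 41 lists, led by arginine biosynthesis, all AMB-LF libraries lie below all AMB libraries, in 2 they lie above, and in 27 the groups overlap.

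Zinc genes varied between cultures more than between treatments. ZRT1, the high-affinity zinc transporter, read 477, 4335 and 1149.8 CPM with AMB-LF and 1005, 1796 and 345 with AMB. ZPS1, a zinc-regulated cell surface protein, was at 55.2, 1716 and 146 CPM against 99.2, 313 and 38.6. AMB-LF 2 was the highest treated library in both and AMB 3 the lowest. ZAP1, the zinc-responsive activator, was at 34.1, 192 and 54.6 CPM against 54, 74 and 30, a log2 difference of 0.52 with a 95% interval from -0.92 to 1.96. It was -0.89 on lane 1 and 1.76 on lane 2, and -0.267 without AMB-LF 2. Over all 5456 genes 18 were called, so a list of this size would seldom hold a call, and 386 had an unadjusted p under 0.05. Of 26 zinc genes tested none was called, and 3 had an unadjusted p under 0.05. The 95% interval lay within 1.5-fold for 13 of the 26, against 92.7% of all tested genes. DESeq2 called 1, IZH4, a membrane protein regulated by zinc, at 16.4, 14.3 and 12.9 CPM against 10.6, 9.52 and 7.63. The 6-library fit called ATG41, an autophagy gene of the zinc list, at 128, 165 and 138 CPM against 194, 222 and 205 (log2 difference -0.58, adjusted p = 0.0493). The untreated 50 min cultures stood above every treated library in ZPS1 and ZRT1. ZPS1 was there at 4860.3 to 8812 CPM and ZRT1 at 5652 to 8332 CPM. The untreated groups themselves differed. ZAP1 was at 240 to 437 CPM in the 50 min control, but at 34.9 to 83.6 CPM in the control for AMB, within the treated range. Of the 26 zinc genes, 15 were called higher in the 50 min control than in the control for AMB and 2 lower, with a median of 0.803.

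Iron genes showed no called difference either. Of 33 tested, 0 were called by the quasi-likelihood test or by DESeq2. An unadjusted p under 0.05 was found for 2, against 386 of all 5456 genes, and the median was -0.053. For 24 of the 33 the 95% interval lay within 1.5-fold, against 92.7% of all tested genes. With 18 of 5456 genes called, a list of this size would seldom hold a call. FIT2, a cell wall protein that retains siderophore iron, was at 408, 660 and 869 CPM with AMB-LF and 705, 1183 and 587 with AMB, so the groups overlapped. AFT1 was at 106, 109 and 120 CPM against 115, 118 and 121, a log2 difference of -0.11 with a 95% interval from -0.28 to 0.06. GRX4, a glutaredoxin that takes part in iron sensing, was called in the 6-library fit, at 121, 109 and 122 CPM against 156, 178 and 160.

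**Figure D5:**
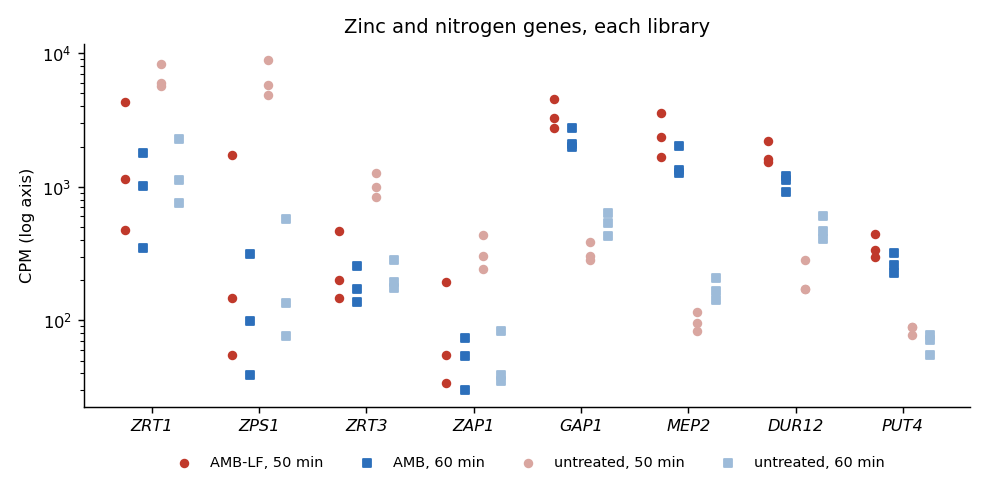
CPM (log axis) of 4 zinc genes and 4 nitrogen genes in each library; red circles are AMB-LF, blue squares AMB and pale symbols the untreated controls. ZRT1, ZPS1, ZRT3 and ZAP1 spread widely within each treated group, whereas GAP1, MEP2, DUR12 and PUT4 are high in both treatments, with AMB-LF 1 the highest library.

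Sterol genes, which make the target of amphotericin B, were close to equal. Of 33 tested, 0 were called by the quasi-likelihood test or by DESeq2, where 18 of all 5456 genes passed the former. An unadjusted p under 0.05 was found for 1, against 386 of 5456, and the median was 0.019. ERG11, lanosterol demethylase, read 617, 567 and 602 CPM with AMB-LF and 610, 606 and 660 with AMB, with a 95% interval from -0.27 to 0.12 for its log2 difference. For 32 of the 33 the interval lay within 1.5-fold, against 92.7% of all tested genes. PDR5, the main drug efflux pump, was at 6387, 6438 and 6819 CPM against 6249, 7049 and 5890.3.

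Growth genes were also near equality. Over 104 ribosome biogenesis factors the median was 0.026 with 0 called and 0 at an unadjusted p under 0.05. The interval lay within 1.5-fold for 88 of the 104, against 92.7% of all tested genes. AMB 2 was the lowest treated library. Lane 1 libraries alone gave a median of 0.144 and lane 2 libraries -0.13. Over 134 cytoplasmic ribosomal protein genes the median was -0.046 with 0 called. Between the untreated groups the same lists had medians of -1.15 and -0.882, with 103 and 132 members called lower at 50 min. All 37 proteasome genes had positive values, with a median of 0.112, but 0 were called and 3 had groups that did not overlap (8.11%, against 6.2% of all genes). The proteasome range was 0 to 0.23, and PRE2 was at 484, 416 and 491 CPM against 372, 436 and 406.

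Fitted differences beyond 1 in size on the log2 scale belonged to 5 genes, none called. Beside ZPS1, these were TAR1, YLR154W-A and YLR154W-B, which lie antisense within the repeated ribosomal DNA, and YLL066C, in a repeated chromosome end. Reads of such copies, counted without regard to strand, cannot be assigned to 1 gene.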

How the data were processed

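Per the study's methods, the authors trimmed HiSeq paired-end reads, mapped them with TopHat and Bowtie on the R64 sequence of S. cerevisiae, and used HTSeq 0.5.3p9 to count reads on coding sequences without regard to strand. They deposited raw counts per gene, which were the only values used. Files of group averages and of the authors' own comparisons (fold changes, test statistics and adjusted p-values) were not used. Of 6692 gene IDs, 6008 matched the R64 annotation (RefSeq), and the rest held 0.36% of HiSeq counts.

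All 12 HiSeq libraries, of which the 6 treated held 6799569 to 8674168 counts, were fitted together in edgeR 4.0.16 (R 4.3.3) with TMM factors, 1 mean per group, a lane term and the quasi-likelihood test, on genes that reached 7 CPM or more in 6 libraries or more. Genes were called at a Benjamini-Hochberg adjusted p under 0.05. Intervals are 95% and come from the fit. Procedures were tested on simulated data. The 6 LF libraries, from another sequencer, were not used.

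The named genes were the 10 largest called differences in each direction without overlap, up to 4 called members per list and direction, and 20 regulators, of which DAL80 did not pass the filter. Other genes were named after their values were seen. Lists and members were chosen with earlier results of these data known. Upstream windows of 300 bases were read from the R64 sequence before each annotated gene start, and 12 motifs were searched on both strands. Alternatives were DESeq2 1.42.0, a likelihood ratio test, other scalings and filters, thinned counts, no lane term, a replicate block, lanes alone, the 6 treated libraries alone and leaving out each library. The untreated libraries were left out in turn after the data had been seen.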

Additional observations from a re-analysis of the deposited data

How the results depend on the processing

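The 17 lower and 1 higher genes kept their direction under every alternative run, which groups without overlap made nearly certain, but the counts moved. Lower and higher counts were 49 and 6 with the likelihood ratio test, 57 and 6 with DESeq2 1.42.0, 10 and 1 with library size only, 24 and 2 with no lane term, 9 and 1 with thinned counts, 36 and 3 with the 6 treated libraries, and 0 and 0 within lane 1 or lane 2 alone, where 252 and 274 genes had an unadjusted p under 0.05. RLE factors, filterByExpr and no filter gave 17 and 1, but not always the same genes. Of the 18, RLE factors kept all, and filterByExpr and no filter each kept 17. Leaving out a treated or an untreated library gave 0 to 26 lower and 0 to 2 higher genes. Without control for AMB 1 there were 7 lower, without control for AMB 2 there were 5 lower and 0 higher, and without control for AMB-LF 3 there were 26 lower and 2 higher. With the replicate number as a block, 2 genes were lower (ADH5 and SHC1) and 0 higher. Same-numbered AMB-LF and AMB libraries had correlations of -0.143, -0.0425 and -0.0101 between their deviations from the group means. Differently numbered pairs ran from -0.193 to 0.252. Lane was not removed from these deviations, and each mean held only 3 libraries. Whether same-numbered libraries share more than a number cannot be told from them. For the untreated comparison, library size only gave 1499 higher (67.2% of calls, against 47.8%), and lane 1 alone 112 higher and 422 lower (21% higher). The cause of these shifts was not tested.

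No called gene changed sign, for the same reason. Among uncalled regulators, log2 differences took the other sign within lane 1 for ZAP1 (-0.924), MSN2 (-0.086), CRZ1 (-0.043) and UPC2 (-0.013), within lane 2 for HSF1 (0.038) and PDR3 (0.101), with the replicate block for UPC2 (-0.021) and GCN4 (0.008), and with library size only for GCN4 (0.004). Over the fits without 1 library, the range was -0.443 to 1.411 for ZAP1, -0.047 to 0.124 for MSN2, -0.039 to 0.076 for CRZ1, -0.153 to 0.017 for PDR3, -0.075 to 0.16 for HAP4, -0.078 to 0.123 for UPC2 and -0.035 to 0.012 for GCN4. Of 984 list medians recomputed, 26 moved by at least 0.1, in 11 lists (ribosome biogenesis, RNA polymerase I, nitrogen catabolite repression, arginine, lysine, zinc, iron, general stress, trehalose, glycogen and glycolysis). The called lower genes differed by 1.25-fold to 1.95-fold, and the median standard error of 0.0916 log2 units sets what 3 libraries a group can show.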
